A study of Rattus norvegicus with 60 samples.

Results

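The genes of the rat major histocompatibility complex (MHC), named RT1 in this species, were examined together with the genes whose products prepare and load the peptides that MHC molecules display. The members were all rows of the deposited table whose gene name starts with RT1-, plus B2m, Tap1, Tap2, Tapbp, Cd74, Ciita, Nlrc5, Psmb8, Psmb9 and Psmb10. This gave 55 members of 32545 genes, of which 44 carried an RT1 name, 50 lay on chromosome 20 and 9 were annotated as pseudogenes. The libraries were made from poly(A) RNA of snap-frozen kidney cortex and outer medulla from wild-type Dahl salt-sensitive rats (SS), a strain that becomes hypertensive on a salt-rich diet, and from a knockout of NOX4 made on that background (NOX4). The enzyme NOX4 is an NADPH oxidase, abundant in kidney, that makes hydrogen peroxide. Rats of each strain were sampled under control conditions (LS), after 7 days (HS7) or after 21 days (HS21) of a 4.0% NaCl diet. The 12 groups of strain, diet and tissue had 5 libraries each, 60 in all. The labels give neither the sex and age of the animals nor the salt content of the control diet. They do not say whether the 5 libraries of a group came from separate animals, so the p-values measure the spread between these libraries, which may be technical.

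MHC class I molecules pair a polymorphic heavy chain with beta-2 microglobulin (B2m) and show peptides from inside the cell to CD8 T cells. These peptides are cut by the proteasome, in which interferon-induced subunits (Psmb8, Psmb9 and Psmb10) can replace the constitutive ones, are pumped into the endoplasmic reticulum by the transporter Tap1-Tap2, and are loaded with the help of tapasin (Tapbp). MHC class II molecules, made mainly by dendritic cells, macrophages and B cells and inducible in other cells, show peptides from endocytosed protein to CD4 T cells; the invariant chain (Cd74) fills their groove until the DM molecule exchanges it for peptide, a step that DO restrains. Transcription of the class II genes is switched on by Ciita, and that of the class I genes is helped by Nlrc5. In kidney, class II is known mainly from resident macrophages and dendritic cells. By role, the members were 34 class I heavy chains, 1 light chain, 4 peptide loading rows, 3 immunoproteasome subunits, 6 class II chains, 4 class II peptide exchange genes, 1 invariant chain and 2 transactivators.

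Of the 55 members, 39 passed the filter on low counts in at least 1 tissue (37 in cortex and 39 in outer medulla). Another 12 had a count but stayed at or below 1.62 counts per 1 M counts (CPM) in every library, and 4 had no count. Library totals ran from 11.5 to 29.6 M counts. A set of 11 libraries, all SS at LS or HS7 (cortex LS replicates 2, 3 and 4 and HS7 replicates 1 and 4, outer medulla LS replicates 2, 3 and 5 and HS7 replicates 1, 3 and 4), held fewer genes at an equal depth of 10 M counts than the other 49 (14102 to 16117 against 16916 to 18377) and are called low-complexity libraries. By library total the targeted gene Nox4 had 251 to 499 CPM in SS cortex and 54 to 75.1 CPM in NOX4 cortex, with lower levels in outer medulla (6.69 to 92.2 in SS and 1.84 to 14.2 in NOX4). The part of the gene that was deleted is not given in the sources used here. Without the low-complexity libraries, SS cortex keeps LS replicates 1 and 5 and HS7 replicates 2, 3 and 5. SS outer medulla then keeps LS replicates 1 and 4 and HS7 replicates 2 and 5, so fits without them rest on few SS libraries.

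RT1 genes are a family of similar sequences, and reads may be divided among them differently by the counting. Of the members, 14 overlapped another on the same strand, so their counts are uncertain. Among them were RT1-CE16 with RT1-A3, RT1-A1 with RT1-A2, and RT1-CE7 with RT1-CE4, RT1-CE2 and RT1-CE5. Tap2 has 2 rows, ENSRNOG00000046031 (chromosome 20, 5198258 to 5212624, minus strand), which lies near RT1-DMb, and ENSRNOG00000000455 (3995544 to 4009587, plus strand), which lies near Tap1. RT1-DMb (5227045 to 5234290, minus strand) and LOC100909630 (3945601 to 3952846, plus strand) are a similar pair: by library total, with no TMM scaling, RT1-DMb ranged from 0.227 to 28.7 CPM and reached 10 CPM in 11 libraries, and LOC100909630 ranged from 0.0746 to 38.1 CPM and did so in 8. On the same scale RT1-DMa and LOC100909593 ranged from 0.21 to 21.8 and from 0.0617 to 12 CPM. Of the members that carry the results, RT1-CE16 (3791407 to 3794027, minus strand), RT1-Bb (4039413 to 4049711, plus), RT1-Ba (4066132 to 4070721, minus), RT1-Da (4127644 to 4132616, minus), Tap1 (3979035 to 3989669, plus), Psmb9 (3973420 to 3978845, minus), Psmb8 (3990613 to 3993769, plus) and Tapbp (5468056 to 5476007, minus) also lie on chromosome 20. Cd74 is on chromosome 18 (56071478 to 56080849, plus), B2m on 3 (114087287 to 114093309, plus), Ciita on 10 (5213350 to 5260608, minus), and Nlrc5 (10905542 to 10976396, minus) and Psmb10 (37909546 to 37912027, minus) on 19. These positions are as deposited, with the genome build not given in the sources used here. Reads may be divided between such rows, and the levels of the DM genes and of both Tap2 rows are therefore given only as uncertain.

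The promoters of 8 members are shown, 7 of which were called in at least 1 comparison below, several of them in the same comparisons; B2m, which was called in none, is shown as the shared light chain. They are the 250 bases before the annotated start, from RefSeq on the GRCr8 assembly, each 5' to 3' in the direction of its gene. They show the class II alpha chains RT1-Da (chr20:4515165-4515414, plus strand) and RT1-Ba (chr20:4576807-4577056, plus strand), the class II beta chain RT1-Bb (chr20:4604119-4604368, minus strand), the class I heavy chain RT1-CE16 (chr20:3265444-3265693, minus strand), the light chain B2m (chr3:129549080-129549329, plus strand), Tap1 (chr20:4668544-4668793, minus strand), Tapbp (chr20:4967878-4968127, minus strand) and Psmb10 (chr19:50743293-50743542, minus strand). Capitals mark matches on either strand to 1 of 3 motifs: CCAAT, the box bound by NF-Y; GAAA and GAAA with any 2 bases between them (the GAAA pair), the core of the interferon-stimulated response element; and TTCNNNGAA, a short palindrome.
RT1-Da: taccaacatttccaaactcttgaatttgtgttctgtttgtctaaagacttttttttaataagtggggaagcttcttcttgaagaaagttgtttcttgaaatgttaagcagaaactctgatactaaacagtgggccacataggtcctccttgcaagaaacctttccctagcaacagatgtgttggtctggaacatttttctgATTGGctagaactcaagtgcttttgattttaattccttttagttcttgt
RT1-Ba: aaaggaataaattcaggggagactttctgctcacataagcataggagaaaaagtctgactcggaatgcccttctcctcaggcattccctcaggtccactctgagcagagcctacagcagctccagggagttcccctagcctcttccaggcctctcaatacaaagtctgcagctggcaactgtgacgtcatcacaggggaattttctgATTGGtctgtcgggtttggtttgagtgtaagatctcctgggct
RT1-Bb: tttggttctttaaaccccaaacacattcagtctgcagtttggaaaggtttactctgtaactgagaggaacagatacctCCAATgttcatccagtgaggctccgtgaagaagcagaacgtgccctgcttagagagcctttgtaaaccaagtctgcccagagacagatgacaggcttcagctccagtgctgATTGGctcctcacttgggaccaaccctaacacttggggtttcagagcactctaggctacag
RT1-CE16: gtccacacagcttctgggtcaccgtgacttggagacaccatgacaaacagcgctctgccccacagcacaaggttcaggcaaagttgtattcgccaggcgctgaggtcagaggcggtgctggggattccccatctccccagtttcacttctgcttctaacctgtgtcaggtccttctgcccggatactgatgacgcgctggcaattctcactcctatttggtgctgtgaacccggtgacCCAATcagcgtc
B2m: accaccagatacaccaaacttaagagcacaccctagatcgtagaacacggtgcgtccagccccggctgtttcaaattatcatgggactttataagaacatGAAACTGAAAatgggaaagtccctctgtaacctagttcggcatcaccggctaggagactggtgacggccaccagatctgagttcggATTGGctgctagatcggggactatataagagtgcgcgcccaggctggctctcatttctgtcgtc
Tap1: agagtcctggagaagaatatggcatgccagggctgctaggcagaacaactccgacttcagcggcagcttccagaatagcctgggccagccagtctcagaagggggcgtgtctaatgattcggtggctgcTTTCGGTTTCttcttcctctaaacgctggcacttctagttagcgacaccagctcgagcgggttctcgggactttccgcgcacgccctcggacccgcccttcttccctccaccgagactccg
Tapbp: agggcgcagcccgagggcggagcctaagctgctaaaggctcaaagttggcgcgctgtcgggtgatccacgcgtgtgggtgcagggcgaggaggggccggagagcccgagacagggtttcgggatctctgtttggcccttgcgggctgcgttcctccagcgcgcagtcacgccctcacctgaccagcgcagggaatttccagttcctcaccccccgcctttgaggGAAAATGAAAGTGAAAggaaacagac
Psmb10: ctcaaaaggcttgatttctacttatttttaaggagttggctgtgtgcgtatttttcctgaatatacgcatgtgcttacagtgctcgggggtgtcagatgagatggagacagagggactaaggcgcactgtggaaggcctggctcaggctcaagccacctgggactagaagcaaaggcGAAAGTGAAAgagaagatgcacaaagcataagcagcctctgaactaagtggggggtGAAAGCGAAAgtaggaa

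CCAAT or its reverse complement stood in the 4 RT1 promoters and in B2m, while Tap1, Tapbp and Psmb10 held the GAAA pair, as did B2m. Of the 54 member symbols, 43 had a RefSeq promoter window of 300 bases (250 before and 50 after the start). CCAAT was in 30 of the 43 (69.8%), against 37.5% of all 33469 promoters, and the GAAA pair in 9 (20.9%), against 3.92%. TTCNNNGAA was in 3 (6.98%), against 8.87%. No matches of different motifs overlapped (0 of 59). Tap1 and Psmb9, which are transcribed in opposite directions, had windows that shared 44 bases. A match is a run of letters and shows no binding.

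Levels of different genes can be compared per length, as deposited FPKM (fragments per kilobase of gene, scaled to the library total). In cortex Cd74 was the highest member, at 940.3 ± 169 FPKM (SD, n = 30), followed by B2m at 621 ± 86.3. The class II alpha chain RT1-Da was at 119 ± 23.8 FPKM and the class I heavy chain RT1-CE16 at 67.2 ± 19.1. Tapbp (54.8 ± 11.3), the heavy chain RT1-S3 (54.7 ± 10.1) and RT1-Bb (50.1 ± 10.2) came next and did not differ beyond their spread. The transactivators were low: Ciita at 3.99 FPKM (2.65 to 5.68) and Nlrc5 at 1.077 ± 0.239 FPKM. In outer medulla the first 4 members stood in the same order, with Cd74 at 996 ± 262 FPKM, B2m at 685 ± 122, RT1-Da at 158 ± 37.4 and RT1-CE16 at 116 ± 32.0.

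The comparison of SS at HS21 with SS at LS asks how these genes stand after 21 days of salt. Members of every role except the light chain rose in cortex, and none fell. Calls here and below rest on an adjusted p under 0.05 from edgeR's quasi-likelihood test, with Benjamini-Hochberg adjustment over all genes tested. Of the 37 members tested 16 were higher and 0 lower, against 16.5% of all genes called (8.42% higher and 8.04% lower). The median log2 fold change was 0.63 over the members and 0.01 over all 15179 genes. By role the counts were 4 of 18 heavy chains, 3 of 4 loading rows, 2 of 3 immunoproteasome subunits, 4 of 4 class II chains, the invariant chain, 1 of 4 exchange genes and 1 of 2 transactivators.

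Among the heavy chains, RT1-CE16 had 37.1, 47.8, 44.2, 43.0 and 38.7 CPM in the LS libraries of SS cortex and 83.4, 90.97, 84.4, 85.5 and 80.3 CPM at HS21. The groups were far apart, and each was narrow. RT1-CE16 overlaps RT1-A3 over 2399 bases of the same strand, so its count is uncertain here and below. Its log2 fold change was 1.00 ± 0.11 (SE; adjusted p = 2.62e-06), from 42.2 ± 4.33 to 84.9 ± 3.898 CPM (SD, n = 5). RT1-A2, a classical class I gene, rose by 1.05 ± 0.31 (adjusted p = 0.0204), with overlapping libraries (2.53 to 9.46 CPM at LS and 8.41 to 13.3 at HS21). RT1-A1, whose annotated span encloses RT1-A2 on the same strand, was at 15.5 ± 10.1 and 28.6 ± 6.69 CPM (0.87 ± 0.39, adjusted p = 0.121). RT1-CE4 (0.65 ± 0.19, adjusted p = 0.0188) and RT1-CE2 (1.53 ± 0.46, adjusted p = 0.0223) rose from low levels, RT1-CE2 from 0 to 1.32 CPM at LS to 1.53 to 2.69 at HS21. The abundant heavy chain RT1-S3 was at 80.3 ± 20.4 and 98.2 ± 8.18 CPM (0.28 ± 0.14, adjusted p = 0.171). B2m, the partner of all these chains, was at 938 ± 110.0 and 1045 ± 68.8 CPM (0.14 ± 0.13, adjusted p = 0.466), and the 2 groups overlapped.

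Of the 4 loading rows 3 rose. Tapbp had 59.2, 65.4, 43.3, 64.9 and 53.2 CPM at LS and 89.9, 93.6, 103, 94.98 and 89.0 CPM at HS21, with no overlap (0.71 ± 0.11, adjusted p = 0.000122). The Tap2 row near RT1-DMb had 15.2, 8.70, 6.74, 7.99 and 8.04 CPM at LS and 15.4, 25.1, 23.3, 22.5 and 21.0 CPM at HS21 (1.19 ± 0.20, adjusted p = 0.000321). The highest LS library, replicate 1, came close to the lowest HS21 library. The other Tap2 row was at 7.04 ± 3.03 and 6.64 ± 0.916 CPM (-0.09 ± 0.24, adjusted p = 0.829). Reads may be divided between the rows of Tap2, so the values of both are uncertain. Tap1, the other subunit of the transporter, rose from 24.0 ± 2.58 to 37.3 ± 4.54 CPM (0.63 ± 0.13, adjusted p = 0.00231). Of the immunoproteasome subunits, Psmb9 rose from 13.1 ± 2.61 to 24.2 ± 3.73 CPM (0.87 ± 0.17, adjusted p = 0.00125) and Psmb10 from 15.9 ± 1.72 to 28.2 ± 4.43 CPM (0.82 ± 0.17, adjusted p = 0.00198). Psmb8 was at 5.92 ± 0.800 and 9.17 ± 1.63 CPM (0.62 ± 0.24, adjusted p = 0.0682), and its groups did not overlap either.

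Each immunoproteasome subunit can be set against the constitutive subunit that it replaces, as a ratio of FPKM within a library. Psmb10 was 42.1 ± 9.48% of Psmb7 at LS and 92.3 ± 20.04% at HS21, with libraries from 29.9 to 55.3% and from 64.0 to 119%. Psmb9 was 11.97 ± 2.65% of Psmb6 and then 18.4 ± 3.39%. Psmb8 was 3.43 ± 0.455% of Psmb5 and then 5.10 ± 1.02%. Only the first pair stood fully apart, and there the denominator also moved: Psmb7 fell (-0.32 ± 0.10, adjusted p = 0.0247), while Psmb6 rose (0.25 ± 0.09, adjusted p = 0.0475).

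All 4 class II chains tested rose. RT1-Bb had 128, 142, 102, 116 and 146 CPM at LS and 205, 199.7, 259, 209 and 225 CPM at HS21 (0.78 ± 0.12, adjusted p = 0.00016). RT1-Da had 174, 181, 194, 179.6 and 254 CPM and then 294, 297, 385, 323 and 311 CPM (0.70 ± 0.12, adjusted p = 0.00047). In both genes every HS21 library lay above every LS library. RT1-Ba rose from 38.5 ± 10.6 to 67.9 ± 7.07 CPM (0.80 ± 0.17, adjusted p = 0.00204), and RT1-Db1, another beta chain, from 29.3 ± 5.29 to 44.9 ± 7.22 CPM (0.60 ± 0.16, adjusted p = 0.00966). Cd74 followed with 821, 840.0, 823, 798 and 1027 CPM at LS and 1177, 1252, 1545, 1278 and 1371 CPM at HS21 (0.61 ± 0.12, adjusted p = 0.000978). Of the exchange genes RT1-DOb, the beta chain of DO, rose from 5.27 ± 1.58 to 9.04 ± 1.14 CPM (0.77 ± 0.21, adjusted p = 0.0143). Ciita rose from 16.1 ± 2.72 to 24.3 ± 3.04 CPM (0.58 ± 0.13, adjusted p = 0.0025), and Nlrc5 was at 5.57 ± 1.80 and 6.04 ± 0.460 CPM (0.10 ± 0.21, adjusted p = 0.777).

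**Figure D1:**
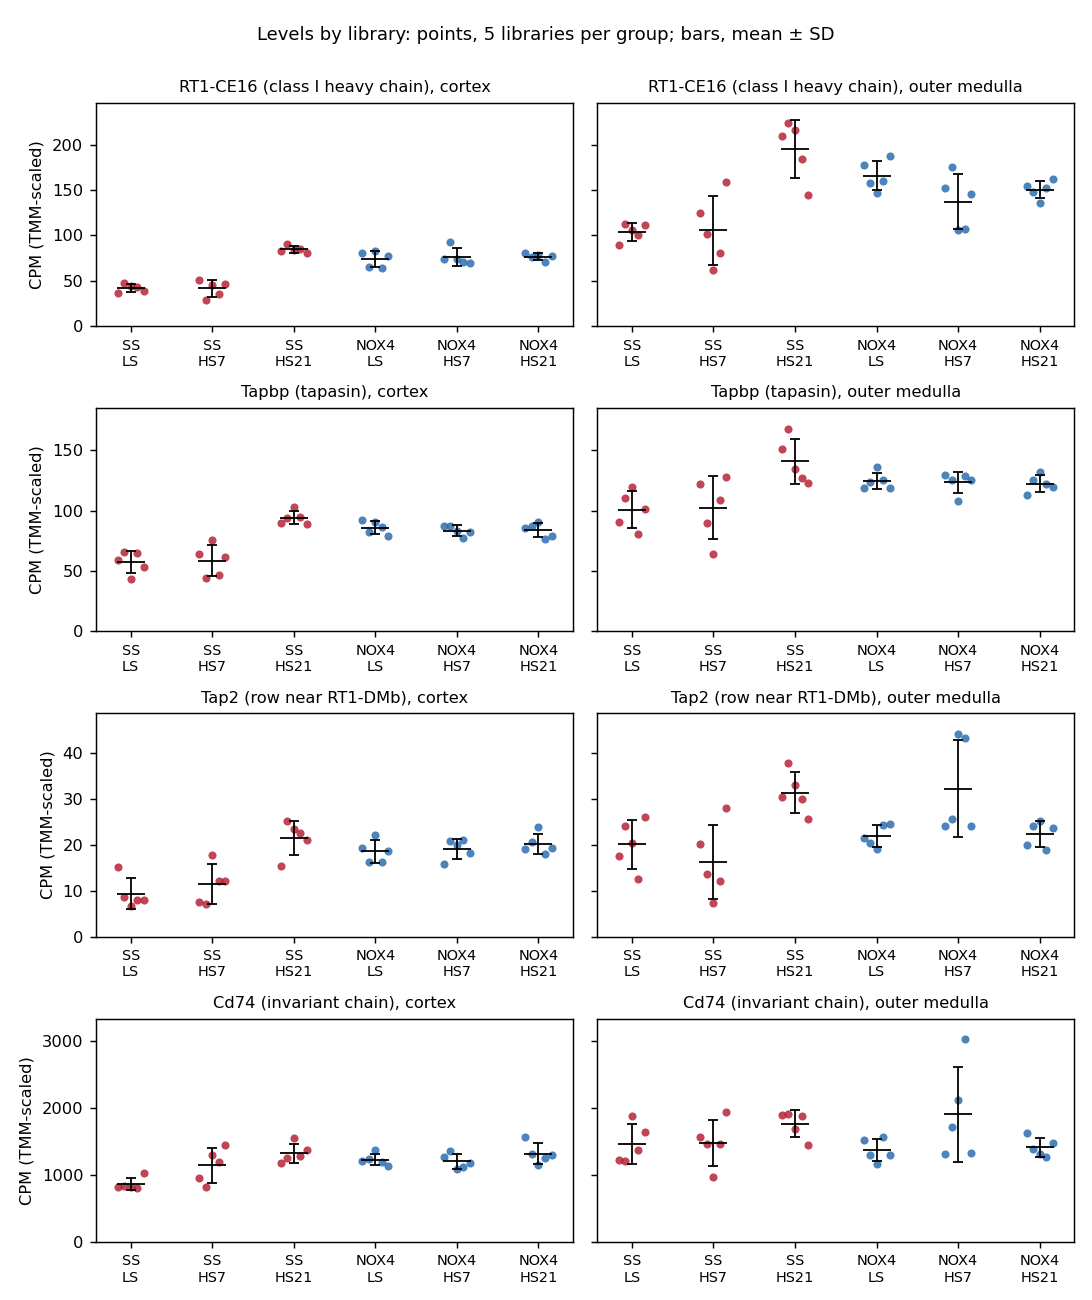
CPM of RT1-CE16, Tapbp, the Tap2 row near RT1-DMb and Cd74 (rows) in cortex (left) and outer medulla (right), 1 point per library, 5 libraries per group of strain and diet, with bars for the mean ± SD. In cortex the RT1-CE16 libraries of SS at HS21 (80.3 to 90.97) and of NOX4 at every diet (64.2 to 92.9) all sit above the highest SS library at LS or HS7 (51.3).

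Some markers of immune cells were also higher in SS cortex at HS21, though most did not pass the test, which called 8.42% of all genes higher. Of 7 leukocyte markers, 2 rose (Coro1a by 0.94 and Laptm5 by 0.75 on the log2 scale), and the summed level of the list went from 154.4 to 185 CPM at LS to 215.1 to 300.4 CPM at HS21. Of 9 macrophage markers 4 rose, among them C1qa (1.00 ± 0.22) and Csf1r (0.51 ± 0.17), with summed levels of 190.6 to 245 and 258.2 to 343.1 CPM. Of 7 dendritic cell markers 2 rose, Flt3 (1.22 ± 0.28) and Batf3 (3.01 ± 0.78), and of 9 T and NK cell markers 1 rose (Cd3d). B cell markers summed to at most 1.94 CPM in any of these libraries. With the leukocyte marker score as a covariate, 6 of the 16 members stayed called: RT1-CE16, Tapbp, the Tap2 row near RT1-DMb, RT1-Bb, RT1-Da and Cd74. In bulk tissue more cells of a type and more RNA per cell cannot be told apart.

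Some genes of the pathway lists around the members were called, where 16.5% of all genes were (8.42% higher and 8.04% lower). A list count near that share is not a result about the list. Of 6 genes of class I loading and the proteasome activator, Tapbpl, a tapasin-like editor (0.62 ± 0.19), and Psme2 (0.24 ± 0.08) rose and the chaperone Canx fell (-0.22 ± 0.06). Of 7 class II processing genes Ctsd, an endosomal protease, rose (0.61 ± 0.12, adjusted p = 0.00135). Of 16 transcriptional regulators and interferon-gamma signalling genes 3 rose: Irf8, a factor of myeloid cells (0.96 ± 0.15, adjusted p = 0.000119), Ifngr2 (0.49 ± 0.16) and Irf1 (0.46 ± 0.14). Of 5 costimulation and adhesion genes Icam1 rose (0.61 ± 0.11, adjusted p = 0.000449).

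Without the low-complexity libraries 10 members were called in SS cortex at HS21, 9 of them among the 16; Cd74 (0.51, adjusted p = 0.0627), RT1-Ba (0.62, 0.0786), RT1-Db1, RT1-DOb, RT1-CE4, RT1-A2 and RT1-CE2 were not called. RT1-CE16 (1.16, adjusted p = 0.000182) and Tapbp (0.74, 0.00233) were as large without them. Only replicates 1 and 5 of SS cortex at LS were left in this setting, and replicate 5 was the highest LS library in Cd74 (1027 CPM). A call lost through fewer libraries and a call lost through library quality cannot be told apart here. The share of all genes called in this setting is not given here.

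After 7 days of salt 2 of the 4 class II chains were called in SS cortex. RT1-Da (0.53 ± 0.12, adjusted p = 0.022) and RT1-Bb (0.47 ± 0.12, adjusted p = 0.0396) were higher than at LS, and no other member was called (2 of 37, against 2.25% of all genes, 1.17% up and 1.07% down). RT1-Da had 243, 236, 317, 267 and 360.1 CPM at HS7. The lower of these lay within the LS range, which reached 254 CPM. Cd74 had 952, 812, 1290, 1199 and 1448 CPM (0.40 ± 0.12, adjusted p = 0.0559). RT1-CE16 was at 51.3, 29.3, 45.8, 35.1 and 47.0 CPM, a range that enclosed the LS libraries, and Tapbp at 64.3, 44.6, 75.7, 46.3 and 61.8 CPM. Both class II calls were lost without the low-complexity libraries (adjusted p = 0.292 and 0.193) and with the proximal tubule segment 3 score as a covariate (0.134 and 0.29), and both were lost without any 1 of SS HS7 replicates 3 and 5 and SS LS replicate 4. RT1-Bb was also lost without any 1 of SS HS7 replicate 4 and SS LS replicates 1 and 3.

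NOX4 cortex already stood higher at LS. Against SS at LS, 14 of 37 members were higher and 0 lower, where 22% of all genes were called (11.7% higher and 10.3% lower); the median log2 fold change was 0.38 over the members and 0.01 over all genes. This comparison shares the 5 SS LS libraries with the salt comparison above, so the members' values in the 2 comparisons are not separate evidence. By role, 5 of 18 heavy chains, 3 of 4 loading rows, 1 of 3 immunoproteasome subunits, 3 of 4 class II chains, the invariant chain and 1 of 4 exchange genes were higher, and neither transactivator was called.

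RT1-CE16 had 81.0, 64.7, 83.4, 64.2 and 77.0 CPM in NOX4 cortex at LS, all above the SS libraries (0.80 ± 0.11, adjusted p = 4.66e-05). Tapbp had 92.0, 82.4, 90.3, 86.3 and 78.7 CPM (0.57 ± 0.11, adjusted p = 0.000549), and the Tap2 row near RT1-DMb 19.3, 16.3, 22.0, 16.3 and 18.7 CPM (0.98 ± 0.20, adjusted p = 0.00104). These groups did not overlap with SS at LS either. The other Tap2 row was at 6.56 ± 1.09 CPM in NOX4 and 7.04 ± 3.03 CPM in SS, and it was not called. RT1-Bb was at 192 ± 17.03 CPM (0.59 ± 0.12, adjusted p = 0.00128), and Cd74 at 1226 ± 85.8 CPM against 862 ± 93.7 (0.50 ± 0.12, adjusted p = 0.00291). RT1-A2 (1.14 ± 0.31, adjusted p = 0.00912) and the nonclassical heavy chain RT1-T24-4 (0.43 ± 0.12, adjusted p = 0.00972) were higher with overlapping libraries. The other called members were RT1-Ba, Psmb9, Tap1, RT1-Da, RT1-DOb, RT1-CE2 and RT1-CE10, with log2 fold changes from 0.38 to 1.66. B2m was at 1081 ± 46.3 CPM in NOX4 (0.19 ± 0.13, adjusted p = 0.295), Ciita had 0.27 ± 0.13 (0.126) and Nlrc5 0.01 ± 0.21 (0.986).

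No leukocyte marker was called in this comparison (0 of 7, where 22% of all genes were), and their summed level was 167.2 to 232.8 CPM in NOX4 and 154.4 to 185 CPM in SS. Of the macrophage markers 1 of 9 rose (C1qa, 0.74 ± 0.22), of the dendritic cell markers 1 of 7 (Batf3, 2.32 ± 0.79) and of the class II processing genes 3 of 7. Of 5 endothelial markers 2 were higher (Tie1, 0.54 ± 0.09, and Kdr, 0.35 ± 0.11), with summed levels of 355.8 to 420.4 CPM in NOX4 and 287.3 to 328.5 in SS, which did not overlap; their part in the result was not tested. Markers of proximal tubule segment 3, the straight part of the tubule, were lower in NOX4 (4 of 6, median -1.74; summed 754.6 to 1423 CPM against 2394 to 4258), and 5 of 6 markers of segments 1 and 2 were higher. With the segment 3 score as a covariate 1 member was called, RT1-CE16 (0.81, adjusted p = 0.00779); Tapbp had 0.47 (0.102) and RT1-Bb 0.15 (0.535). Without the low-complexity libraries 4 members were called, 3 of them among the 14, with RT1-CE16 (0.95, adjusted p = 0.00084) and Tapbp (0.60, 0.00786), while Cd74 was not (0.39, 0.116). That setting left only replicates 1 and 5 of SS at LS. Leaving out SS LS replicate 4 or NOX4 LS replicate 3 took the count to 9 and 8.

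At HS7, NOX4 cortex was higher than SS cortex in 3 of 37 members, where 17.4% of all genes were called (9.61% up and 7.77% down). They were RT1-CE16, with 74.2, 92.9, 73.5, 70.2 and 69.2 CPM (0.86 ± 0.11, adjusted p = 3.96e-05), Tapbp, with 87.5, 87.0, 83.1, 76.9 and 82.0 CPM (0.50 ± 0.11, adjusted p = 0.00266), and the Tap2 row near RT1-DMb, with 15.8, 20.7, 19.9, 21.0 and 18.1 CPM (0.74 ± 0.20, adjusted p = 0.0116). RT1-CE16 and Tapbp libraries of the 2 strains did not overlap, and those of Tap2 did. In a fit of these 2 groups alone, Tapbp (adjusted p = 0.0751) and the Tap2 row near RT1-DMb (0.0953) were not called. The other Tap2 row was at 8.07 ± 1.65 CPM in NOX4 and 5.95 ± 1.25 CPM in SS at HS7, and it was not called in the fit of all libraries.

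At HS21 no difference between the strains was called in cortex (0 of 37, against 1% of all genes; at an unadjusted p under 0.05, 1 member and 1729 genes), and DESeq2 called 0 members as well. RT1-CE16 had 81.2, 75.9, 78.3, 70.4 and 77.1 CPM in NOX4, where 4 of 5 libraries lay under the SS range of 80.3 to 90.97 (-0.15 ± 0.11, adjusted p = 0.726). Tapbp had 85.4, 87.2, 90.8, 76.5 and 78.8 CPM (-0.17 ± 0.11), and Cd74 1567, 1309, 1141, 1254 and 1294 CPM, which overlapped with SS. The median log2 fold change of the members was -0.12. A p that misses the threshold does not show that the strains were equal. Averaged over the 3 diets, NOX4 cortex was higher in 7 of 37 members and lower in 0, where 31.7% of all genes were called (16.7% higher), with RT1-CE16 (0.50 ± 0.06, adjusted p = 2.66e-06), Tapbp (0.30 ± 0.06, adjusted p = 0.00052) and the Tap2 row near RT1-DMb (0.54 ± 0.11, adjusted p = 0.000572) first.

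Within NOX4 cortex no member was called between diets. At HS7 and at HS21 against LS, 0 of 37 members were called, where 0% of all genes were (at an unadjusted p under 0.05, 2 and 1 members and 782 and 236 genes), and DESeq2 called 0 members in either. The smallest p at HS7 was that of RT1-T24-4 (-0.39 ± 0.12, adjusted p = 0.54), at 32.2 ± 2.82 CPM against 42.3 ± 6.39 at LS. The difference between the strains in the change from LS to HS21 was tested as an interaction. It was called for 3 of 37 members, all with a log2 change that was lower in NOX4 than in SS, where 1.08% of all genes were called (0.567% in this direction). RT1-CE16 had an interaction of -0.95 ± 0.16 on the log2 scale (adjusted p = 0.00215), Tapbp of -0.74 ± 0.15 (adjusted p = 0.0161) and RT1-Bb of -0.73 ± 0.17 (adjusted p = 0.0361). The Tap2 row near RT1-DMb had -1.07 ± 0.28 (adjusted p = 0.0523) and Cd74 -0.51 ± 0.16 (adjusted p = 0.113). Of the 16 regulators 1 was called, Irf8 (-0.88 ± 0.21, adjusted p = 0.0335). RT1-Bb was not called without the low-complexity libraries (-0.62, adjusted p = 0.0955), with the leukocyte score as a covariate (-0.57, 0.108), with the replicate number as a block (-0.72, 0.0527), or without any of 13 single libraries; RT1-CE16 and Tapbp were called in each of these.

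**Figure D2:**
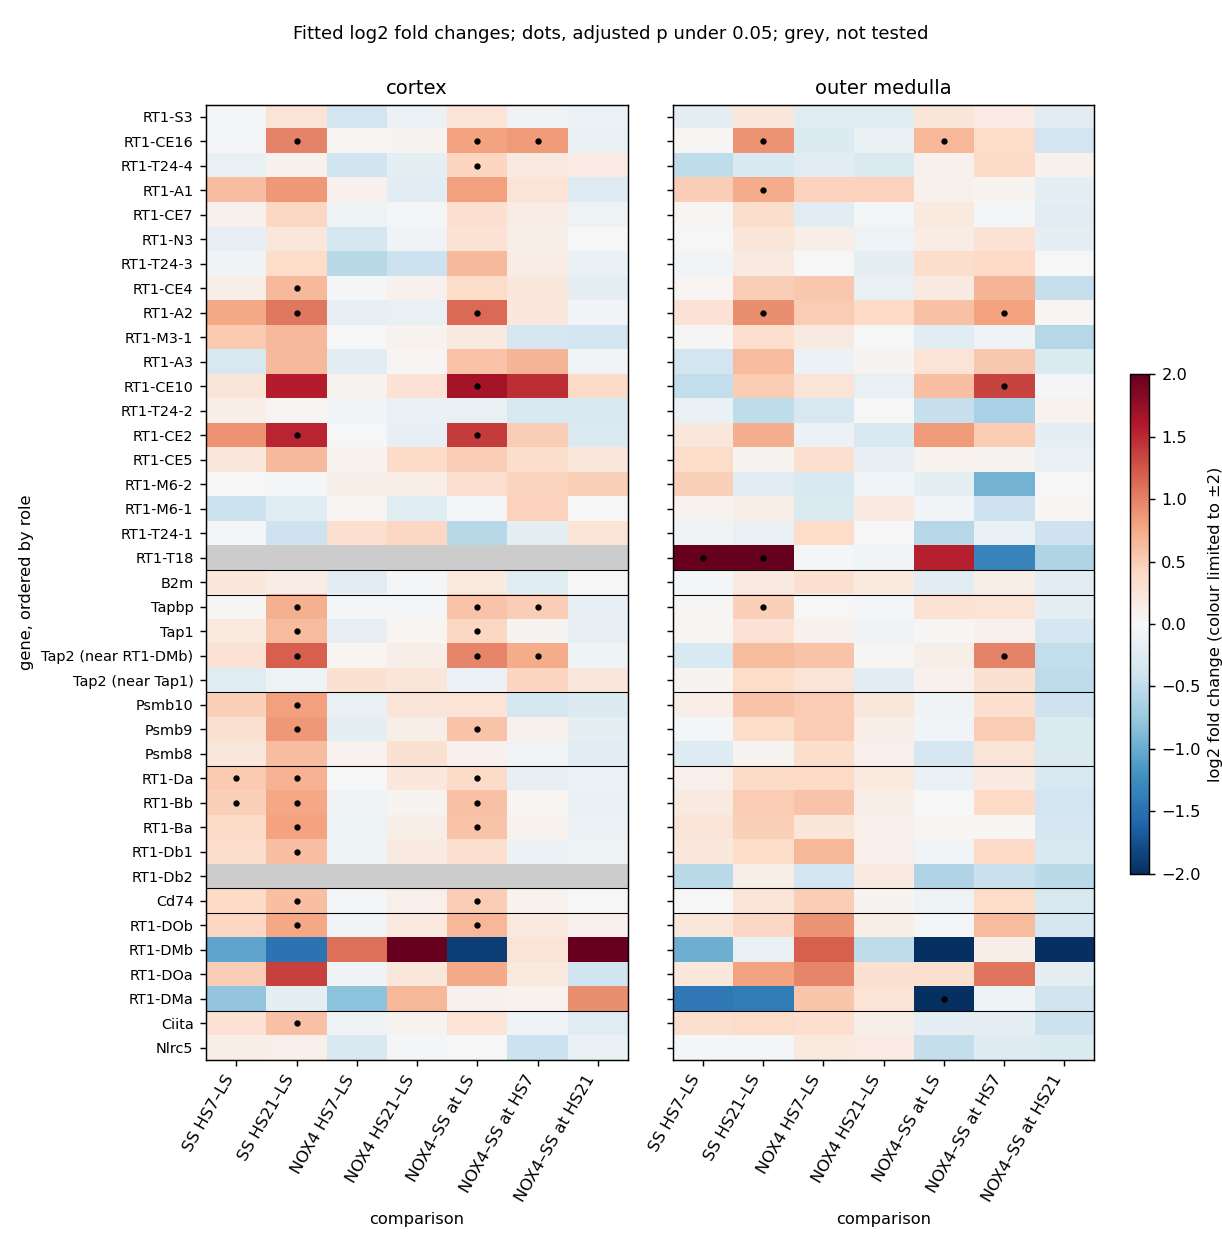
Fitted log2 fold changes of the members (rows, ordered by role) in 7 comparisons (columns) in cortex and outer medulla; red is higher in the first group named, blue lower, dots mark an adjusted p under 0.05 and grey cells were not tested. In cortex the dots lie under SS at HS21 against LS (16) and NOX4 against SS at LS (14), with none under the 2 NOX4 salt comparisons.

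**Figure D3:**
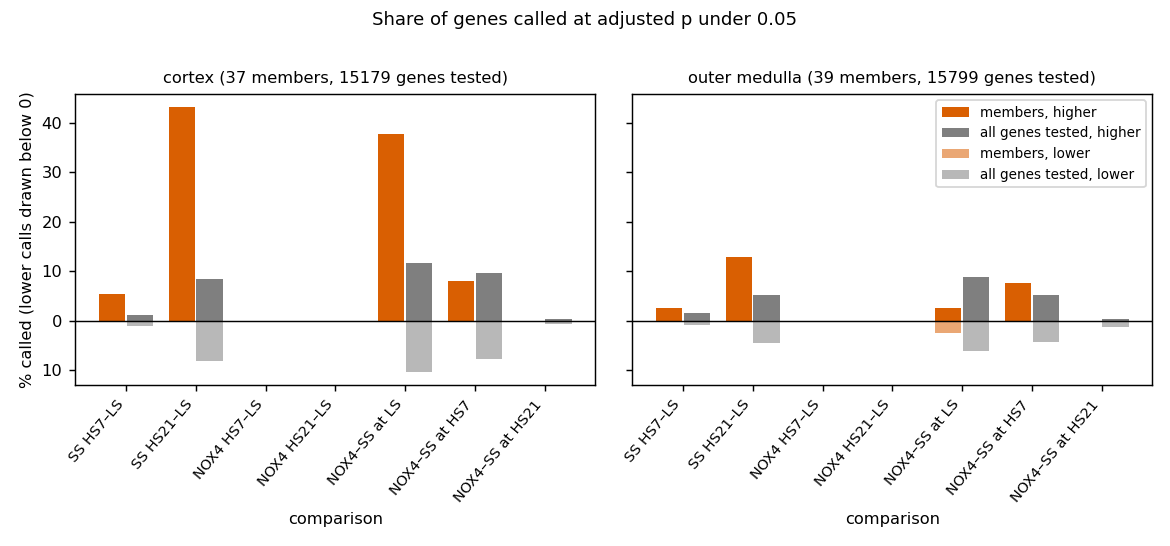
Percent of members (orange) and of all genes tested (grey) called higher, drawn above 0, or lower, drawn below 0, in the same 7 comparisons per tissue. In SS cortex at HS21 the members stand at 43.2% higher beside 8.42% of all genes, and in NOX4 against SS cortex at HS7 at 8.11% beside 9.61%.

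In SS outer medulla at HS21 against LS, 5 of 39 members were higher and 0 lower, where 9.86% of all genes were called (5.29% up and 4.56% down); the median log2 fold change was 0.36 over the members and 0.02 over all genes. RT1-CE16 had 89.2, 113, 106, 100.1 and 112 CPM at LS and 210.0, 224, 216, 184 and 145 CPM at HS21 (0.90 ± 0.17, adjusted p = 0.00174). The groups did not overlap. RT1-A2 rose from 13.3 ± 2.17 to 25.7 ± 2.48 CPM (0.93 ± 0.23, adjusted p = 0.0111), RT1-A1 from 36.5 ± 14.0 to 61.2 ± 9.43 CPM (0.74 ± 0.22, adjusted p = 0.0325) and Tapbp from 101 ± 15.3 to 141 ± 18.4 CPM (0.47 ± 0.13, adjusted p = 0.023). RT1-A2 and RT1-A1 overlap over 3555 bases of the same strand, so these may not be separate measurements. RT1-T18, annotated as a processed transcript, was also called (2.10 ± 0.66, adjusted p = 0.0422) but stayed under 1 CPM in every library of both groups. At such levels the low-count filter may have favoured its direction, so its call is not support.

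No class II chain was called in outer medulla at HS21 (0 of 5), and Cd74 was at 1461 ± 293 CPM at LS and 1763 ± 200.1 CPM at HS21 (0.26 ± 0.19, adjusted p = 0.419). Of the leukocyte markers 1 of 7 rose (Coro1a, 0.70 ± 0.19), of the macrophage markers 2 of 9 (C1qa, 1.19 ± 0.26, and Adgre1, 0.63 ± 0.21), and of the regulators 2 of 16 (Irf8, 0.58 ± 0.13, and Ifngr2, 0.51 ± 0.12). In this comparison 5.29% of all genes were higher and 4.56% lower. Of the dendritic cell markers 0 of 7 rose and 1 fell (Clec9a, -0.72 ± 0.23), and of 5 endothelial markers 0 rose and 2 fell (Emcn, -0.53 ± 0.16, and Tek, -0.62 ± 0.20). The summed leukocyte markers ran from 414.1 to 527.6 CPM at LS and from 466.7 to 716.6 at HS21. With the leukocyte score as a covariate 3 members were called, and RT1-A2 (0.69, adjusted p = 0.059), RT1-A1 (0.52, 0.131) and Tapbp (0.28, 0.145) were not among them; with the segment 3 score 17 were called. The share of all genes called under these settings is not given here. Leaving out SS LS replicate 4, or SS HS21 replicate 1 or 2, took the count to 2. At HS7 RT1-T18 alone was called (1 of 39, 2.87 ± 0.67, adjusted p = 0.0278, against 2.37% of all genes, 1.55% up), from 0 to 0.417 CPM at LS to 0.430 to 2.72 CPM. It was not called without SS HS7 replicate 3 (adjusted p = 0.0888). The low-count filter may have favoured its direction here too, so this call is not support.

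Between the strains in outer medulla, RT1-CE16 was again higher in NOX4 at LS, at 177, 158, 146, 161 and 187 CPM against 89.2 to 113 in SS (0.66 ± 0.17, adjusted p = 0.0134). It was 1 of 2 members called of 39, where 14.8% of all genes were (8.8% up and 6.05% down). The other was RT1-DMa, which was lower (-2.07 ± 0.63, adjusted p = 0.0298) through SS LS replicate 2 at 21.2 CPM and had -0.64 (adjusted p = 0.401) without it. As a DM gene its level is uncertain. All 6 segment 3 markers were higher in NOX4 outer medulla at LS, with a median of 1.77. At HS7 the Tap2 row near RT1-DMb (0.98 ± 0.25, adjusted p = 0.0156), RT1-A2 (0.80 ± 0.23, adjusted p = 0.0294) and RT1-CE10 (1.36 ± 0.41, adjusted p = 0.0373) were higher in NOX4 (3 of 39, where 9.61% of all genes were called, 5.23% up and 4.39% down).

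Those 3 calls changed with the libraries kept. Without 1 library at a time the count ran from 0 to 6, and without the low-complexity libraries it was 1. In SS at HS7 the Tap2 row near RT1-DMb was at 20.2, 13.6, 7.29, 12.1 and 28.0 CPM in replicates 1 to 5. NOX4 HS7 replicates 3 and 4 of outer medulla stood apart. The same Tap2 row was at 24.1, 25.5, 44.1, 43.3 and 24.1 CPM, RT1-Bb at 222, 248, 335, 445 and 204 CPM and Cd74 at 1314, 1714, 2125, 3031 and 1327 CPM in NOX4 replicates 1 to 5. Without these 2 libraries the values were 0.58 for Tap2 (adjusted p = 0.328), 0.39 for RT1-A2 (0.485) and 1.06 for RT1-CE10 (0.324), and 0 members were called. In this group the summed leukocyte markers ran from 450.8 to 843.9 CPM, and in SS at HS7 from 369 to 691.3. With the leukocyte score as a covariate and all libraries kept, the 3 calls were made: 0.92 for Tap2 (adjusted p = 0.00102), 0.69 for RT1-A2 (0.0411) and 1.35 for RT1-CE10 (0.0259). At HS21 no member was called (0 of 39, where 1.63% of all genes were, 1.33% down; 3 members and 2804 genes at an unadjusted p under 0.05), with a member median of -0.29 against -0.02 over all genes. DESeq2 called 1 member there, and a fit of the 2 groups alone called 10. The share of all genes called in those fits is not given here, so these counts are not a result about the members. Averaged over diets, RT1-A2 (0.48 ± 0.13, adjusted p = 0.00798) and RT1-CE10 (0.64 ± 0.23, adjusted p = 0.0384) were higher and RT1-DMb lower (-1.45 ± 0.45, adjusted p = 0.0174), 3 of 39 where 30.4% of all genes were called. The RT1-DMb value is uncertain, since reads may be divided between RT1-DMb and LOC100909630.

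Within NOX4 outer medulla 0 of 39 members were called at HS7 or HS21 against LS, where 0% of all genes were. At an unadjusted p under 0.05 there were 12 members at HS7 and 1 at HS21 (2162 and 249 genes), and DESeq2 called 0 members. The HS7 values included RT1-Db1 (0.66 ± 0.20, adjusted p = 0.198), RT1-Bb (0.57 ± 0.19, 0.214) and Cd74 (0.49 ± 0.19, 0.267), from the group in which replicates 3 and 4 were high. The interaction of strain with salt at HS21 was called for 0 of 39 members in outer medulla, where 0.0253% of all genes were (4 members at an unadjusted p under 0.05; DESeq2 called 1). RT1-CE16 had -1.04 ± 0.24 there (adjusted p = 0.105).

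In the comparison of outer medulla with cortex, every member called was higher in outer medulla, while the share of members called (66.7%) was near that of all genes in either direction. The labels do not say whether a cortex and an outer medulla library came from the same animal, and the fit treats all 60 as separate; with same-numbered libraries of a group as pairs the count was also 26. Averaged over the 6 groups of strain and diet, 26 of 39 members were higher in outer medulla and 0 lower, where 71.6% of all genes passed (37.6% upward and 34% downward), with a median log2 fold change of 0.71 over the members and 0.03 over all genes. By role, 15 of 19 heavy chains were higher, 2 of 4 loading rows, 3 of 3 immunoproteasome subunits, 4 of 5 class II chains, 1 of 4 exchange genes and 1 of 2 transactivators. These counts include the heavy chain RT1-T18 and the class II chain RT1-Db2, which passed the low-count filter in outer medulla but not in cortex. The filter favoured their direction, so their calls are not support. The light chain and the invariant chain were not called.

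The heavy chains RT1-CE7 (0.96 ± 0.06, adjusted p = 3.87e-20), RT1-CE4 (1.45 ± 0.09, adjusted p = 6.11e-20) and RT1-N3 (1.297 ± 0.09, adjusted p = 1.54e-18) had the smallest p of the heavy chains, with RT1-CE7 at 41.6 ± 7.17 CPM (SD, n = 30) in outer medulla and 21.3 ± 3.69 in cortex on the joint scale. RT1-CE7 and RT1-CE4 overlap over 202499 bases of the same strand and both overlap RT1-CE2 and RT1-CE5, so these may not be separate measurements. Tap1 was at 66.2 ± 12.9 and 34.5 ± 7.08 CPM (0.94 ± 0.07, adjusted p = 6.16e-19), and Nlrc5, the class I transactivator, at 14.98 ± 4.45 and 6.28 ± 1.41 CPM (1.24 ± 0.11, adjusted p = 1.8e-15). The immunoproteasome subunits differed by similar sizes: Psmb9 by 0.98 ± 0.09, Psmb8 by 0.91 ± 0.11 and Psmb10 by 0.86 ± 0.08. The constitutive subunits were lower in outer medulla (3 of 3, -0.18 ± 0.03 for Psmb5). Psmb9 was thus 31.3 ± 9.47% of Psmb6 there and 14.4 ± 3.52% in cortex, Psmb10 was 133.5 ± 46.1% and 64.1 ± 20.9% of Psmb7, and Psmb8 was 8.47 ± 3.10% and 3.95 ± 1.26% of Psmb5, each over 30 libraries.

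Among the class II genes RT1-Da (0.39 ± 0.07), RT1-Db1 (0.40 ± 0.08) and RT1-Ba (0.23 ± 0.07) were higher in outer medulla, and RT1-Db2 as well (1.99 ± 0.30) at under 4 CPM. RT1-Db2 did not pass the low-count filter in cortex, so its call is not support. RT1-Bb had 206 ± 57.6 and 206 ± 42.0 CPM (-0.01 ± 0.07, adjusted p = 0.916) and Cd74 1388 ± 355 and 1329 ± 238 CPM (0.06 ± 0.07, adjusted p = 0.448). Ciita (0.15 ± 0.07, adjusted p = 0.0533), B2m (0.11 ± 0.06, adjusted p = 0.0757) and the Tap2 row near RT1-DMb (0.20 ± 0.09, adjusted p = 0.056) were not called.

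The surrounding lists were compared between the tissues too, where 71.6% of all genes were called (37.6% upward and 34% downward). A list count near that share is not a result about the list. All 7 leukocyte, all 9 macrophage and all 3 B cell markers tested were higher in outer medulla, and 8 of 10 T and NK cell markers were higher and 1 lower. Of 7 dendritic cell markers 4 were higher and 2 lower, of 5 endothelial markers 4 were higher and 1 lower, and all 3 red blood cell markers were higher (median 1.81). Of 16 regulators 10 were higher, Irf1 (0.66 ± 0.06) among them, and 3 lower. All 5 costimulation genes were higher. Of the 7 class II processing genes 6 were lower, with Lgmn at -2.61 ± 0.11 and Ctsb at -2.02 ± 0.06, and Ctss, the cathepsin that trims the invariant chain, was higher (1.25 ± 0.08). With the leukocyte score as a covariate 10 members were called, 2 higher and 8 lower. Psmb9 (-0.03), Psmb10 (-0.10), Tapbp (-0.01) and RT1-Da (-0.40) then had the opposite sign. On each tissue's scaling this score reached at most 5.275 in cortex and was at least 5.59 in outer medulla. It did not overlap between the tissues, so this fit cannot separate the score from tissue and decides no direction. The share of all genes called with this covariate is not given here.

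**Figure D4:**
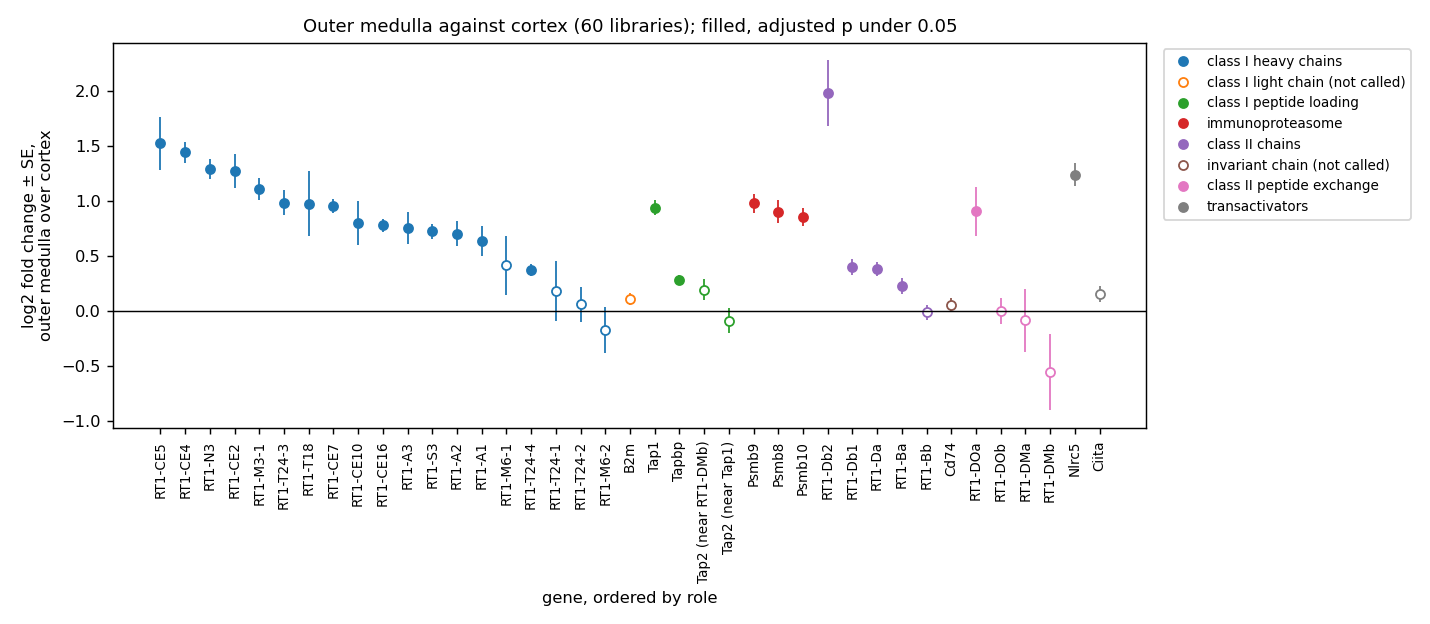
Log2 fold change ± SE of outer medulla over cortex for the 39 members tested, 1 point per member, coloured by role, filled where the adjusted p was under 0.05. The heavy chains, Tap1, the immunoproteasome subunits and Nlrc5 lie mostly above 0 by more than their SE, while B2m, Cd74, RT1-Bb and Ciita lie between -0.01 and 0.15.

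Within groups, libraries with more Ciita had more Cd74. Values were log2(CPM + 1) with the group mean subtracted, and 6 relations were tested by permutation within groups (100000 draws, 2-sided) with adjustment over the 6. In cortex (n = 30) Cd74 and Ciita had a Pearson r of 0.60 and a Spearman rho of 0.55 (permutation p = 0.0062 and 0.00829, adjusted p = 0.0124 and 0.0218), and r was 0.61 without the 2 libraries farthest in Ciita and 0.79 without the low-complexity libraries. In outer medulla the same pair had r = 0.53 and rho = 0.49 (permutation p = 0.0139 and 0.0185, adjusted p = 0.0209 and 0.0278), but r fell to 0.34 (adjusted permutation p = 0.166) without the 2 farthest libraries, SS HS7 replicate 3 and SS LS replicate 5, so this relation rests on them. Cd74 against the leukocyte gene Ptprc had r = 0.66 and rho = 0.575 in outer medulla (permutation p = 0.00081 and 0.00409, adjusted p = 0.00453 and 0.0218; r = 0.57, adjusted p = 0.0846 without the 2 farthest) and r = 0.33 and rho = 0.32 in cortex (permutation p = 0.16 and 0.132, adjusted p = 0.16 and 0.132); without the low-complexity libraries the cortex rho was 0.535 (adjusted p = 0.0379). B2m against Nlrc5 had r = 0.56 and rho = 0.49 in outer medulla (permutation p = 0.00151 and 0.0109, adjusted p = 0.00453 and 0.0218; r = 0.38, adjusted p = 0.0846 without the 2 farthest) and r = 0.26 and rho = 0.37 in cortex (permutation p = 0.0973 and 0.0618, adjusted p = 0.117 and 0.0741; r = 0.41, adjusted p = 0.0388 without the 2 farthest; rho = 0.151, adjusted p = 0.563 without the low-complexity libraries). For B2m and Nlrc5 in outer medulla, rho was 0.227 without the 2 farthest libraries (adjusted permutation p = 0.286). It was 0.224 without the low-complexity libraries (adjusted permutation p = 0.408). Genes of 1 library share its depth and its tissue makeup.

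**Figure D5:**
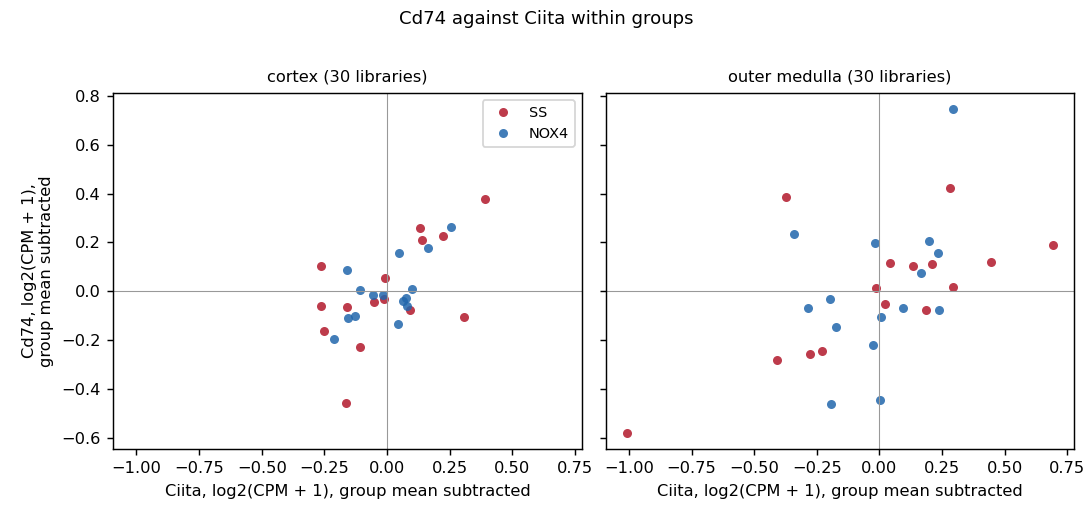
Cd74 against Ciita, both as log2(CPM + 1) minus the group mean, 1 point per library, SS in red and NOX4 in blue, for 30 cortex and 30 outer medulla libraries. The cortex points follow a rising band (r = 0.60), and in outer medulla the SS library at the lower left, HS7 replicate 3, has the lowest Ciita.

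The authors' deposited table holds its own tests, by a tool not stated there. At an adjusted p under 0.05 it gave 20 members higher and 1 lower of 46 for SS HS21 against LS in cortex, where 7.36% of all its genes were higher and 7.79% lower. The authors' deposited table had 12 of 46 higher for NOX4 against SS at LS in cortex (7.93% of all genes), and 12 of 47 for SS HS21 against LS in outer medulla (6.36% of all genes). For NOX4 against SS at HS21 in outer medulla the authors' deposited table had 12 of 46 members lower (12.3% of all genes), RT1-CE16 (log2 fold change -0.35, adjusted p = 0.00655) and Cd74 (-0.29, 0.0190) among them, where the edgeR fit of all 30 libraries called 0. For NOX4 against SS at HS7 in outer medulla it called 0 of 47 members (0.571% of all genes higher), where edgeR called 3. For the strains at HS21 in cortex it had 1 higher and 1 lower of 44 (4.64% and 4.75% of all genes), where edgeR called 0. Within NOX4 outer medulla at HS21 against LS it had 1 of 45 higher (0.167%), where edgeR called 0. The authors' deposited table also compared SS at HS7 with SS at HS21, where RT1-CE16 in cortex had a log2 fold change of -1.01 (adjusted p = 2.98e-09) and Tapbp -0.67 (0.000158).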

How the data were processed

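Poly(A) RNA was sequenced from 60 libraries, 5 in each of 12 groups of strain, diet and tissue, grouped by the labels. The deposited table holds whole-number counts per gene and FPKM values for each library, per the file headers, and the authors' log2 fold changes and p-values for their own comparisons. The submitters' processing notes name HISAT2 2.0.5, StringTie 1.3.3b and featureCounts 1.5.0-p3; the genome build and the use of strand are not given in the sources used here. All sample columns could be matched to a sample.

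Counts as deposited were scaled by TMM, filtered by filterByExpr and tested by edgeR's quasi-likelihood test (edgeR 4.0.16, limma 3.58.1, R 4.3.3) with 1 coefficient per group fitted to 30 libraries per tissue, with all 60 entering the comparison of tissues. P-values were adjusted by Benjamini-Hochberg over all genes tested, at a threshold of 0.05. The SE is the log2 fold change divided by the square root of F. CPM are TMM-scaled counts per 1 M within a tissue, except where given by library total. Depth was 11.5 to 29.6 M counts. FPKM were used only for levels between genes and for ratios. Alternatives were DESeq2 1.42.0, its size factors, no filter on low counts, the compared groups alone, marker scores as covariates, a replicate block, and leaving out libraries. The scripts were tested on simulated data.

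All members may be named. Full statistics are given for up to 6 called members per comparison by smallest p, for the non-RT1 members, and for RT1 genes at a mean of 10 CPM or more in a tissue; lists name up to 4 called genes. The members and lists were chosen with earlier results of these data known.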

Additional observations from a re-analysis of the deposited data

Results flagged for a closer look

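Among members at or above the level set for naming, 20 of 282 groups of 5 libraries (7.09%) held 1 library that stood apart from the other 4 by Dixon's criterion, where chance gives about 1 in 20. No explanation was tested. In SS cortex at LS, replicate 5 was high in Cd74 (1027 CPM, others 798 to 840.0) and RT1-Da (254, others 174 to 194), replicate 4 was low in Psmb9 (8.54, others 13.8 to 14.96), and replicate 1 was high in the Tap2 row near RT1-DMb (15.2, others 6.74 to 8.70). In SS cortex at HS21, replicate 2 was high in RT1-T24-4 (38.7, others 30.4 to 32.5) and RT1-T24-3 (15.2, others 9.16 to 10.5).

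In NOX4 cortex at LS, replicate 3 was high in RT1-Db1 (49.7 CPM, others 31.6 to 36.1), RT1-T24-3 (21.1, others 10.5 to 11.9) and Nlrc5 (7.42, others 4.70 to 5.44). At HS7, replicate 2 was high in RT1-CE16 (92.9, others 69.2 to 74.2). At HS21, replicate 1 was high in RT1-Bb (237, others 184 to 195) and RT1-Ba (83.4, others 53.8 to 62.0), replicate 3 in Psmb8 (12.8, others 5.48 to 7.09), and replicate 5 was low in Psmb9 (17.6, others 22.1 to 22.9).

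In outer medulla, SS LS replicate 3 was high in RT1-S3 (239 CPM, others 147 to 174) and SS HS7 replicate 3 low in RT1-T24-4 (34.1, others 44.7 to 49.0). Of the NOX4 libraries, LS replicate 1 was high in RT1-CE4 (28.3, others 22.5 to 23.9), LS replicate 5 in RT1-A3 (13.7, others 9.31 to 10.4) and HS21 replicate 5 in Tap1 (77.1, others 65.9 to 67.8), and HS7 replicate 3 was low in Tapbp (108, others 125 to 129).

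The response to 21 days of salt differed between the strains in cortex, by edgeR's test of the interaction, for RT1-CE16 (-0.948 on the log2 scale), Tapbp (-0.743) and RT1-Bb (-0.726), each adjusted over all genes tested as given above.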

How the results depend on the processing

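Of the 85 calls of a member in a comparison, DESeq2's Wald test made all 85, 60 were made without any 1 library, and 14 under every alternative run. In cortex, the 14 members called for NOX4 against SS at LS became 9 with the compared groups alone, 1 with the segment 3 score and 4 without the low-complexity libraries; the 3 at HS7 became 1 with the groups alone and 5 without those libraries; the 0 at HS21 became 1 with the groups alone; and the 7 averaged over diets became 11 with the leukocyte score and 1 with the segment 3 score. The 2 for SS at HS7 became 1 with the leukocyte score and 0 with the groups alone, the segment 3 score or no low-complexity libraries, the 16 at HS21 became 6 with the leukocyte score and 10 without those libraries, and the 3 interactions became 6 with DESeq2 or the groups alone. In outer medulla, the 2 for NOX4 against SS at LS became 4 with DESeq2, 5 with the leukocyte score, 6 without the low-complexity libraries and 1 with the replicate block; the 3 at HS7 became 10 with the segment 3 score, 1 without the low-complexity libraries and 0 with the groups alone or without NOX4 HS7 replicates 3 and 4 (an alternative chosen after seeing the data); the 0 at HS21 became 1 with DESeq2, 10 with the groups alone and 3 without the low-complexity libraries; and the 3 averaged over diets became 11 with the leukocyte score, 5 with the segment 3 score or without replicates 3 and 4, and 7 without the low-complexity libraries. The 1 for SS at HS7 became 2 with DESeq2, 5 with the leukocyte score and 0 with the groups alone, the segment 3 score or no low-complexity libraries, the 5 at HS21 became 3 with the leukocyte score and 17 with the segment 3 score, and the 0 interactions became 1 with DESeq2, the groups alone or the segment 3 score. The 26 of outer medulla against cortex became 10 with the leukocyte score, which did not overlap between the tissues. The share of all genes called under each alternative is not given here. A change in a count is therefore not a result about the members alone. The cause of these changes was not tested.

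Without 1 library at a time the cortex counts ran from 8 to 15 for NOX4 against SS at LS, 3 to 5 at HS7 and 5 to 8 averaged, from 0 to 4 for SS at HS7, 15 to 17 at HS21 and 2 to 4 for the interaction. In outer medulla they ran from 1 to 3, 0 to 6 and 2 to 8 for the strains, and from 0 to 2 at HS7 and 2 to 5 at HS21 for SS; the tissue count ran from 26 to 29, and the other counts stayed at 0. Signs turned for Cd74 in NOX4 against SS averaged over diets in cortex with the segment 3 score (-0.0552), and in outer medulla against cortex with the leukocyte score for Psmb9 (-0.0314), Psmb10 (-0.101), RT1-T24-3 (-0.0369), Psmb8 (-0.00203), RT1-CE5 (-0.232), RT1-A2 (-0.0722), Tapbp (-0.0103), RT1-Da (-0.396), RT1-Db1 (-0.462), RT1-A1 (-0.0186), RT1-DOa (-0.626), RT1-CE10 (-0.101) and RT1-Ba (-0.426).

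The labels do not say whether a replicate number marks a shared animal, and in no pair of groups did every same-numbered pair correlate above 0.1, so the numbers were not taken as pairs; in SS at LS, 4 of 5 cortex libraries correlated best with the outer medulla library of their own number, a hint from the data. The replicate block moved the count only in outer medulla at LS (2 to 1) beyond 1.5 times, and 6 calls were not made under it by edgeR: the RT1-Bb interaction in cortex (adjusted p = 0.0527), RT1-CE10 (0.0568) at LS and RT1-DOb (0.0580) averaged over diets for the strains in cortex, and RT1-DMa at LS (0.0992) and RT1-CE10 at HS7 (0.0623) and averaged (0.0594) in outer medulla. Without the 2 farthest libraries, r in outer medulla was 0.569 for Cd74 with Ptprc, 0.341 for Cd74 with Ciita and 0.377 for B2m with Nlrc5, and 0.411 in cortex for B2m with Nlrc5. Without the low-complexity libraries r in outer medulla was 0.512 for Cd74 with Ciita and 0.449 for B2m with Nlrc5, each with an adjusted permutation p of 0.0559. The groups alone were not run for averaged comparisons. Members under a few CPM are limited by depth.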
